A study of Rattus norvegicus with 18 samples.

Results

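A set of 8 genes of cholesterol synthesis and its sterol control was followed in rat thyroid cells given thyroid-stimulating hormone (TSH). They were Fdft1, Sqle, Lss, Cyp51, Hsd17b7 and Dhcr7, which encode enzymes from the making of squalene to cholesterol, and the regulators Insig1 and Srebf1. Every probe set that the array's annotation maps to one of these symbols and no other was taken. This gave 19 of the 8740 probe sets tested, for 8 of 4736 genes: 5 for Cyp51, 4 for Fdft1, 3 for Lss, 2 each for Dhcr7 and Insig1, and 1 each for Sqle, Hsd17b7 and Srebf1.

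The squalene branch starts where Fdft1, squalene synthase, joins farnesyl units into squalene, the committed step to sterols. Sqle adds an oxygen to squalene, Lss closes the rings to give lanosterol, Cyp51 and Hsd17b7 act in the removal of lanosterol's extra methyl groups, and Dhcr7 reduces the last intermediate to cholesterol. The genes of this route are known targets of the sterol regulatory element-binding proteins (SREBPs). These are transcription factors that Insig1 holds in the endoplasmic reticulum when sterols are plentiful, and Srebf1 encodes SREBP-1. In thyrocytes TSH acts on a receptor that raises cyclic AMP, and it maintains growth and hormone synthesis.

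The study measured total RNA of 2 established rat thyroid lines on 1-colour Affymetrix arrays, in 6 groups of 3 biological replicates. FRT/TSHR cells, a de-differentiated thyroid line named for the TSH receptor, grew in Ham's F12 medium as modified by Coon and received bovine TSH at 1 U/L for 30 min or 17 h, or none (basal). FRTL5 cells, differentiated thyrocytes, spent 5 days in the 5H medium without TSH and were given 0.1 U/L for 30 min or 17 h, or none (basal). All cells spent 12 h without serum before stimulation. Line, medium and TSH dose differed together and cannot be told apart. Both TSH times of a line share 1 basal group, so an effect of TSH and one of time or handling cannot be told apart either. Values are log2 RMA expression per probe set, and in bulk RNA fewer cells of a type and less RNA per cell cannot be told apart.

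The line labels were checked against thyroid markers. In FRT/TSHR basal cells Tg, the thyroglobulin gene, was 7.04 ± 0.37 (log2 difference ± SE) below FRTL5 basal cells (limma, Benjamini-Hochberg adjusted p = 4.67e-10). The mean of 6 measured thyrocyte markers lay at 6.22 to 6.43 on the FRT/TSHR arrays and at 7.9 to 8.96 on the FRTL5 arrays (7.94 to 8.96 at 17 h, 7.9 to 8.71 at basal). For 4 fibroblast markers it was 5.37 to 5.65 in FRT/TSHR and 5.41 to 5.81 in FRTL5 cells, and for 2 leukocyte markers 5.96 to 6.66 in FRT/TSHR and 6.06 to 6.34 in FRTL5 cells. For rat Tshr only the probe set with the highest mean is given, and it differed by 0.04 between the basal lines (limma, adjusted p = 0.912). The 3 FRTL5 arrays numbered 1 stood apart in the control probe sets of beta-actin. The 3' end read 1.13 to 1.22 (log2) above the 5' end on these, and -0.14 to 0.28 above it on the other 15 arrays. Calls on the 19 probe sets that change without these arrays are given both ways. The median SD between replicates of the 19 probe sets was 0.26 in FRT/TSHR and 0.28 in FRTL5 groups, against 0.15 in FRT/TSHR and 0.16 in FRTL5 groups over all probe sets.

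Start-site windows are shown for the 4 genes that had one in RefSeq's table and a probe set that rose in FRTL5 cells after 17 h of TSH, to give their sequence context. The table (assembly GRCr8) held 7 windows for 6 of the 8 genes, from 250 bases before to 50 after the annotated start. Srebf1 had 2 windows, and Fdft1 and Sqle had none in the table. Capitals mark matches on either strand to CCAAT (the CCAAT box), GGGCGG (the Sp1 box) and CACGTG (the E-box). The windows below are Cyp51 at chr4:30991443-30991742 (plus strand), Hsd17b7 at chr13:84722705-84723004 (minus strand), Dhcr7 at chr1:208444184-208444483 (plus strand) and Insig1 at chr4:8057720-8058019 (minus strand), each 5' to 3'.
Cyp51: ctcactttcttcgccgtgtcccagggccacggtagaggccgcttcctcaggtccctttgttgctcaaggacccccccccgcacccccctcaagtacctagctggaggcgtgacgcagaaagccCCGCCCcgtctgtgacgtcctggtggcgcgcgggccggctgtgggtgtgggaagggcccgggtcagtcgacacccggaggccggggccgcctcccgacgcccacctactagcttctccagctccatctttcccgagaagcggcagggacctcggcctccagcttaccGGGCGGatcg
Hsd17b7: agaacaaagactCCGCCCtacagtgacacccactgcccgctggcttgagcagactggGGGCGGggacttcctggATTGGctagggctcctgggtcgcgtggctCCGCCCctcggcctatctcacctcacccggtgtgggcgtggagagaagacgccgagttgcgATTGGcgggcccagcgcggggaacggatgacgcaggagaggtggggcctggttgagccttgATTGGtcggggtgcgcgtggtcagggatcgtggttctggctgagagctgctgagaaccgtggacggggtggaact
Dhcr7: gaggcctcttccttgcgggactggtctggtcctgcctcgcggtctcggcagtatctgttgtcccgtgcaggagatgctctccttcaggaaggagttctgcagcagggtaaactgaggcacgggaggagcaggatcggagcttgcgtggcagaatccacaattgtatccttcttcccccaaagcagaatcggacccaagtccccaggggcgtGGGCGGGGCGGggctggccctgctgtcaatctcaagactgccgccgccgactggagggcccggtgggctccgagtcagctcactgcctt
Insig1: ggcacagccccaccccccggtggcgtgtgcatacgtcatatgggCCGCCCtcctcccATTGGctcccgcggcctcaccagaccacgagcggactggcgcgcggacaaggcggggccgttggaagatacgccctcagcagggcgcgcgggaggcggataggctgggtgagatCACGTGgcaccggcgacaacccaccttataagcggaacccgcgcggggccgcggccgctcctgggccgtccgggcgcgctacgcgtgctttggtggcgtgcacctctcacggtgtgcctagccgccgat

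The Sp1 box stood in 7 of the 7 windows, against 33.1% of 33469 promoter windows of the same length. A CCAAT box stood in 5 of 7, against 37.5% of all. The 2 windows without one were those of Cyp51 and Dhcr7. Hsd17b7 held 3 CCAAT boxes, starting at positions -176, -86 and -25, and Insig1 held 1 at -193 and an E-box at -79, with +1 as the start base. The E-box was in 1 of the 7 windows and in 6.42% of all. The letters TCACNCCAC, the core of a sterol regulatory element, were in 0 of the 7 windows and in 1.12% of all windows. With 1 mismatch allowed they were in 4 of 7 windows and in 23.7% of all. No overlap between the motifs was scored, and a match is only a match of letters.

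After 17 h of TSH, 10 of the 19 probe sets were higher than at basal in FRTL5 cells at an adjusted p under 0.05, against 1.64% of all probe sets, and 0 were lower (1.92% of all). The 10 belonged to 5 of the 8 genes: Cyp51, Hsd17b7, Dhcr7, Fdft1 and Insig1. All 19 differences were positive, from 0.39 to 2.30, with a median of 0.82 against 0.01 over all probe sets. In 14 of 19 the 17 h and basal arrays did not overlap, with the 17 h arrays higher, against 7.6% of all probe sets. Sqle, Lss and Srebf1 did not pass.

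**Figure D1:**
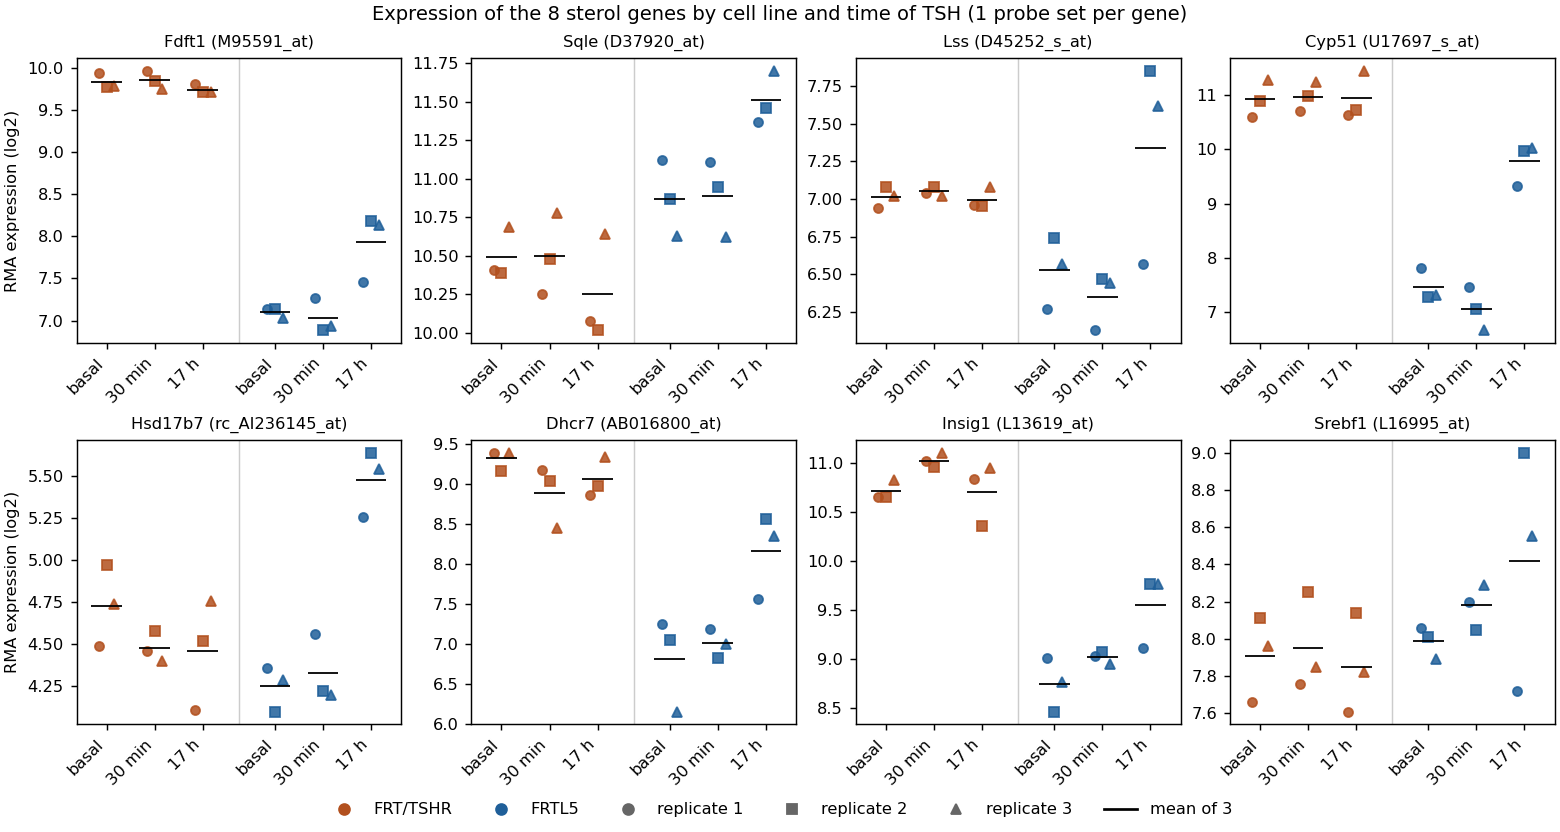
Expression (RMA, log2) of 1 probe set per gene, the one with the highest mean, on all 18 arrays. Each point is 1 array, its shape gives the replicate number, orange is FRT/TSHR, blue is FRTL5, bars are means of 3, and the y axes differ between panels and do not start at 0. FRTL5 arrays at 17 h sit above those at basal for Fdft1, Sqle, Cyp51, Hsd17b7, Dhcr7 and Insig1, while replicate 1 at 17 h lies within the basal range for Lss and below it for Srebf1.

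Cyp51, the lanosterol demethylase, had the largest difference of the 8 genes in FRTL5 cells. Its probe set U17697_s_at read 7.81, 7.28 and 7.33 at basal, 7.46, 7.07 and 6.68 after 30 min and 9.33, 9.97 and 10.03 after 17 h (log2, replicates 1 to 3). All 17 h arrays were higher than every array of the earlier times. The 17 h minus basal difference was 2.30 ± 0.26 (SE), or 4.94-fold, with an adjusted p of 2.66e-04 by limma. AB004096_at differed by 1.98 ± 0.29 (adjusted p = 0.00128), rc_AA963449_s_at by 1.89 ± 0.29 (adjusted p = 0.00206) and rc_AA997614_s_at by 1.52 ± 0.35 (adjusted p = 0.022). The last rested on unequal replicates: it read 7.26, 9.28 and 8.98 at 17 h, against 6.89, 7.14 and 6.94 at basal. The call was lost when FRTL5 basal replicate 1 was left out (adjusted p = 0.0647), 2 (0.0556) or 3 (0.0652), or without 17 h replicate 2 (0.113) or 3 (0.115). The fifth Cyp51 probe set, rc_AI230255_at, read 7.40, 7.19 and 6.98 at 17 h, against 6.95, 6.0 and 5.48 at basal, and differed by 1.05 ± 0.31 (adjusted p = 0.0886). With the replicate number as a block its adjusted p was 0.00316, and without FRTL5 basal replicate 1 the difference was 1.45 (adjusted p = 0.01).

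Hsd17b7, a keto-sterol reductase, was measured by 1 probe set whose FRTL5 basal values lay below the array medians of 5.47 to 5.58. It read 4.36, 4.10 and 4.29 at basal, 4.56, 4.22 and 4.20 after 30 min and 5.26, 5.64 and 5.54 after 17 h in FRTL5 cells. The 17 h arrays did not overlap the others. The difference from basal was 1.23 ± 0.17 (limma, adjusted p = 8.18e-04), and it passed in all 6 fits that left out 1 of the arrays compared. The basal mean of 4.25 was close to the 4.17 that Tg read in FRT/TSHR basal cells, and since detection above background is unknown no fold is given.

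Dhcr7, the last reductase of the route, rose in both of its probe sets. AB016800_at read 7.25, 7.05 and 6.16 at basal, 7.19, 6.83 and 7.0 after 30 min and 7.57, 8.56 and 8.35 after 17 h. Replicate 1 was the highest of the basal arrays and the lowest of the 17 h arrays, and the 2 times did not overlap. Its difference was 1.34 ± 0.28, or 2.53-fold (limma, adjusted p = 0.0143), and that of AB016800_g_at was 1.56 ± 0.30 (adjusted p = 0.00773). The call on AB016800_at was lost without FRTL5 basal replicate 3 (1.01, adjusted p = 0.0535), 17 h replicate 2 (1.14, 0.0736) or 17 h replicate 3 (1.25, 0.0658).

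Fdft1, squalene synthase, rose in 2 of its 4 probe sets. M95591_at read 7.14, 7.14 and 7.03 at basal, 7.27, 6.89 and 6.94 after 30 min and 7.46, 8.18 and 8.13 after 17 h. The 17 h arrays were all higher, with replicate 1 closest to the earlier arrays. Its difference was 0.82 ± 0.16, or 1.77-fold (limma, adjusted p = 0.00759). For rc_H33426_at the difference was 0.65 ± 0.17 (adjusted p = 0.0432). That call was lost without FRTL5 basal replicate 2 (adjusted p = 0.112) or 3 (0.172) and without 17 h replicate 1 (0.103), 2 (0.125) or 3 (0.106), as well as after centring of the arrays (0.065) and with trend and robust settings (0.0501). M95591_g_at and rc_H33426_g_at differed by 0.39 and 0.54 and did not pass (adjusted p = 0.239 and 0.339). The block by replicate number gave rc_H33426_g_at an adjusted p of 0.0363.

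Sqle, squalene epoxidase, read 11.12, 10.87 and 10.63 at basal, 11.11, 10.95 and 10.62 after 30 min and 11.37, 11.46 and 11.70 after 17 h in FRTL5 cells. The 17 h arrays did not overlap the basal ones, but the basal arrays spread over a range close to the difference. The difference was 0.64 ± 0.19 with an adjusted p of 0.0873 by limma, and 0.00861 with the replicate block.

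Lss, the cyclase that makes lanosterol, did not pass in any of its 3 probe sets, and its FRTL5 arrays at 17 h split by replicate. D45252_s_at read 6.27, 6.74 and 6.57 at basal, 6.13, 6.47 and 6.44 after 30 min and 6.57, 7.85 and 7.62 after 17 h. Replicate 1 at 17 h lay within the basal range and the other two above it. Its difference was 0.82 ± 0.23 (limma, adjusted p = 0.07), and E12275cds_s_at and U31352_at differed by 0.67 (adjusted p = 0.228) and 0.85 (0.271). Each of the 3 passed without FRTL5 17 h replicate 1, at 1.21 (adjusted p = 3.30e-04), 1.08 (0.00335) and 1.31 (0.0284). With the replicate block they also passed, at adjusted p = 0.00255 for D45252_s_at, 0.0174 for E12275cds_s_at and 6.78e-04 for U31352_at.

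Insig1, which retains the SREBP complex in the endoplasmic reticulum, rose in 1 of 2 probe sets. L13619_at read 9.01, 8.46 and 8.76 at basal, 9.03, 9.07 and 8.95 after 30 min and 9.11, 9.77 and 9.77 after 17 h. All 17 h arrays were above all earlier arrays, but replicate 1 differed little between the 3 times and replicates 2 and 3 lay further above. The difference was 0.81 ± 0.18, or 1.75-fold (limma, adjusted p = 0.0212). It was lost without FRTL5 basal replicate 2 (0.66, adjusted p = 0.108) or 3 (0.81, 0.0539) and without 17 h replicate 2 (0.70, 0.109) or 3 (0.70, 0.105). L13619_g_at read 9.29, 8.41 and 9.13 at 17 h, against 9.05, 7.96 and 8.43 at basal, and its difference of 0.47 did not pass (adjusted p = 0.776). The mean of the 2 Insig1 probe sets differed by 0.64 and did not pass (adjusted p = 0.249).

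Srebf1, which encodes SREBP-1, read 8.06, 8.01 and 7.89 at basal, 8.2, 8.05 and 8.29 after 30 min and 7.72, 9.0 and 8.55 after 17 h in FRTL5 cells. Replicate 1 at 17 h was below every basal array and the other two were above them. The difference of 0.43 ± 0.24 did not pass (limma, adjusted p = 0.541, 95% interval -0.08 to 0.95). Without FRTL5 17 h replicate 1 it was 0.79 (adjusted p = 0.0365), and without 17 h replicate 2 it was 0.14 (adjusted p = 0.967). Without all 3 FRTL5 arrays numbered 1 it was 0.83 and did not pass (adjusted p = 0.065).

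**Figure D2:**
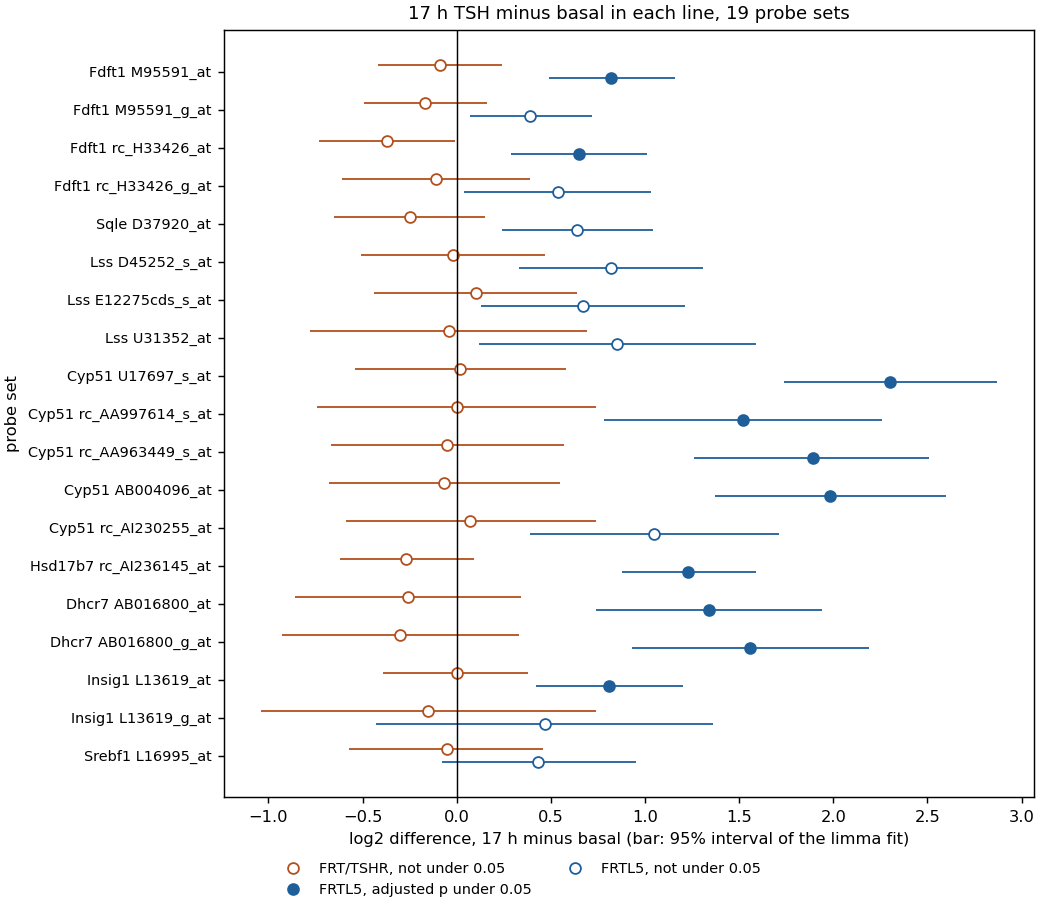
The 17 h minus basal difference (log2) of the 19 probe sets, with FRT/TSHR in orange above FRTL5 in blue for each. Points are limma estimates, bars their 95% intervals, and filled points have an adjusted p under 0.05. FRTL5 values run from 0.39 to 2.30 with 10 filled, and FRT/TSHR values from -0.37 to 0.10 with 0 filled.

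Replicates of the same number within a line deviated together, so the FRTL5 differences were also read within each number. In 18 of 19 probe sets the 17 h array was higher than the basal array in all 3 pairs, and the exception was Srebf1 with -0.35, 0.99 and 0.66. The median over the 19 was 0.33 in pair 1, 1.10 in pair 2 and 1.06 in pair 3. Pair 1 had the smallest difference in 18 of 19 probe sets, the exception being Fdft1 M95591_g_at with 0.33, 0.57 and 0.28. Neither of these 18 of 19 counts was made over all probe sets, so no share is given. For Cyp51 U17697_s_at the pairs gave 1.52, 2.69 and 2.70, and for Dhcr7 AB016800_at 0.32, 1.51 and 2.19. The arrays numbered 1 are those with the larger actin 3' minus 5' difference, and the part of that in the smaller values was not tested. With the replicate block 16 of the 19 probe sets passed, against 363 of all 8740 that were higher. The block left out Insig1 L13619_g_at, Srebf1 (adjusted p = 0.235) and Fdft1 M95591_g_at (0.0592). Without the 3 FRTL5 arrays numbered 1, the 3 Lss probe sets passed at 1.08, 0.92 and 1.03 (adjusted p = 2.52e-04, 0.00575 and 0.00762). Cyp51 rc_AI230255_at passed at 1.35 (0.0167), and Fdft1 rc_H33426_at no longer did at 0.76 (0.0661). When only the 6 arrays compared entered the fit, 3 passed, against 52 of all 8740 that were higher. The 3 were Cyp51 U17697_s_at (adjusted p = 0.0137), Cyp51 AB004096_at (0.029) and Hsd17b7 (0.0173).

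**Figure D3:**
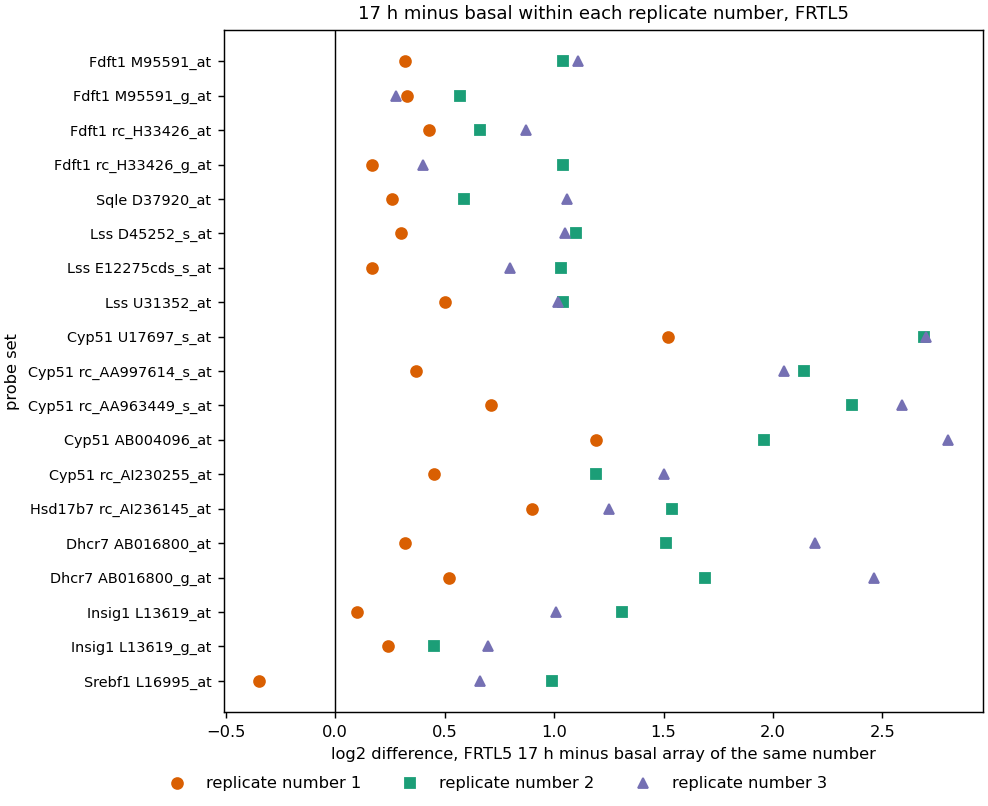
FRTL5 17 h minus basal difference (log2) of each of the 19 probe sets, between arrays of the same replicate number (circle 1, square 2, triangle 3). The circles lie leftmost in 18 of 19 probe sets, and the only point below 0 is Srebf1 in pair 1 at -0.35.

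At 30 min of TSH the FRTL5 cells showed 0 of 19 probe sets past the threshold, against 0.24% of all probe sets, which is 21 by limma with 241 at an unadjusted p under 0.05. The differences from basal ran from -0.40 for Cyp51 U17697_s_at to 0.30 for Dhcr7 AB016800_g_at, with a median of 0.07. At 17 h against 30 min, 10 of 19 were higher (1.86% of all probe sets) and 0 lower (2.35% of all), with a median of 0.89. Here Lss D45252_s_at passed at 1.00 ± 0.23 (adjusted p = 0.022), and Insig1 L13619_at did not at 0.53 ± 0.18 (adjusted p = 0.146). Cyp51 U17697_s_at had the largest value, 2.71 ± 0.26 or 6.54-fold (adjusted p = 4.31e-05). The Lss call was lost without FRTL5 17 h replicate 2 (0.75, adjusted p = 0.107) or 3 (0.86, 0.111) and without 30 min replicate 1 (0.89, 0.0835), 2 (1.06, 0.0596) or 3 (1.05, 0.0527). Insig1 passed without 17 h replicate 1 (0.75, 0.0251), and so did Lss E12275cds_s_at (1.10, 0.00305) and U31352_at (1.23, 0.0363).

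Further calls of 17 h against 30 min depended on single FRTL5 arrays. Cyp51 rc_AA997614_s_at, at 1.44 (adjusted p = 0.0278), did not pass without 17 h replicate 2 (0.133) or 3 (0.141) or 30 min replicate 1 (0.0847), 2 (0.0955) or 3 (0.0608). Dhcr7 AB016800_at, at 1.15 (0.0286), did not pass without 17 h replicate 2 (0.136) or 3 (0.121) or 30 min replicate 2 (0.125) or 3 (0.0839). Its partner AB016800_g_at, at 1.25 (0.0242), did not pass without the same arrays (0.108, 0.11, 0.126 and 0.0742). For Fdft1 rc_H33426_at, at 0.62 (0.0495), the call was lost without any 1 of the 6 arrays, with adjusted p between 0.075 and 0.188. With the replicate number as a block, calls were added for Sqle (0.62, adjusted p = 0.01), Lss E12275cds_s_at (0.0134) and U31352_at (0.00106) and Cyp51 rc_AI230255_at (0.00564). Without the 3 FRTL5 arrays numbered 1, Insig1 L13619_at (0.76, adjusted p = 0.0279), Lss E12275cds_s_at (0.98, 0.00218) and Lss U31352_at (0.90, 0.013) passed and Fdft1 rc_H33426_at did not (0.66, 0.109).

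In FRT/TSHR cells none of the 19 probe sets passed at either TSH time. After 17 h, 0 of 19 passed, against 0% (0 of 8740) of all probe sets by limma, with 108 at an unadjusted p under 0.05. The differences ran from -0.37 for Fdft1 rc_H33426_at to 0.10 for Lss E12275cds_s_at, with a median of -0.07. Cyp51 U17697_s_at read 10.59, 10.89 and 11.27 at basal, 10.70, 10.98 and 11.24 after 30 min and 10.64, 10.73 and 11.44 after 17 h. Its times overlapped throughout, and the 17 h difference was 0.02 with a 95% interval of -0.54 to 0.58. Hsd17b7 read 4.49, 4.97 and 4.74 at basal, 4.46, 4.58 and 4.40 after 30 min and 4.11, 4.52 and 4.76 after 17 h, a difference of -0.27 (interval -0.62 to 0.09). Dhcr7 AB016800_at read 9.39, 9.16 and 9.39 at basal, 9.18, 9.04 and 8.45 after 30 min and 8.86, 8.97 and 9.34 after 17 h, a difference of -0.26 (-0.86 to 0.34). For these genes the FRT/TSHR arrays of the 3 times overlapped.

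The other genes did not pass in FRT/TSHR cells either. Fdft1 M95591_at read 9.94, 9.77 and 9.78 at basal, 9.96, 9.84 and 9.75 after 30 min and 9.81, 9.71 and 9.71 after 17 h, with a 17 h difference of -0.09 (95% interval -0.42 to 0.24). Sqle read 10.41, 10.39 and 10.69 at basal, 10.25, 10.48 and 10.78 after 30 min and 10.08, 10.02 and 10.64 after 17 h, a difference of -0.25 (-0.65 to 0.15). Lss D45252_s_at stayed between 6.94 and 7.08 on all 9 arrays, with a difference of -0.02 (-0.51 to 0.47). The arrays of the 3 times overlapped for each. Insig1 L13619_at read 10.66, 10.66 and 10.83 at basal, 11.03, 10.96 and 11.11 after 30 min and 10.84, 10.36 and 10.95 after 17 h. It was the 1 probe set of 19 whose 30 min arrays lay wholly above basal (5.43% of all probe sets), by 0.31 ± 0.18, and it did not pass (limma, adjusted p = 1.00). Srebf1 read 7.66, 8.11 and 7.96 at basal, 7.76, 8.25 and 7.85 after 30 min and 7.61, 8.14 and 7.82 after 17 h, a difference of -0.05 (-0.57 to 0.46). At 30 min 0 of 19 passed, with 0% of all probe sets past the threshold and 208 at an unadjusted p under 0.05, and the median was -0.14. At 17 h against 30 min 0 passed as well (0% of all, 179 at an unadjusted p under 0.05).

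Before TSH, most of these genes were higher in FRT/TSHR than in FRTL5 cells. Of the 19 probe sets 14 were higher at an adjusted p under 0.05, against 13.3% of all probe sets, and 0 were lower (12.2% of all). The 14 were all probe sets of Fdft1, Cyp51, Hsd17b7, Dhcr7 and Insig1. The median difference was 1.89, against -0.04 over all probe sets, and in 17 of 19 the lines did not overlap, with FRT/TSHR higher (17.5% of all). The FRTL5 basal arrays are the same ones that the 17 h arrays of that line were set against.

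Cyp51 showed the widest gap. Its U17697_s_at averaged 10.92 ± 0.34 in FRT/TSHR and 7.47 ± 0.29 in FRTL5 basal cells (SD, n = 3 each), a difference of 3.44 ± 0.26 or 10.9-fold (limma, adjusted p = 5.08e-08). The other Cyp51 probe sets differed by 3.90, 3.84, 3.24 and 1.4, the last with an adjusted p of 0.00282. Fdft1 M95591_at averaged 9.83 ± 0.10 in FRT/TSHR and 7.10 ± 0.06 in FRTL5 cells, a difference of 2.73 ± 0.16 or 6.63-fold (adjusted p = 1.44e-09). For Dhcr7 AB016800_at the means were 9.32 ± 0.13 in FRT/TSHR and 6.82 ± 0.58 in FRTL5 cells, a difference of 2.49 ± 0.28 (adjusted p = 4.32e-06). Insig1 L13619_at averaged 10.72 ± 0.10 in FRT/TSHR and 8.74 ± 0.28 in FRTL5 cells, 1.98 ± 0.18 apart (adjusted p = 4.76e-07). In each of these 4 genes every FRT/TSHR array was above every FRTL5 array. The other Insig1 probe set, L13619_g_at, differed by 1.51 (adjusted p = 0.0128), and this call was lost without FRT/TSHR basal replicate 3 (1.3, 0.0619) or FRTL5 basal replicate 2 (1.25, 0.0647).

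The remaining genes differed less at basal. Hsd17b7 averaged 4.73 ± 0.24 in FRT/TSHR and 4.25 ± 0.13 in FRTL5 cells, 0.48 ± 0.17 apart (limma, adjusted p = 0.0439). That call was lost without FRT/TSHR basal replicate 2 (0.37, adjusted p = 0.192) or 3 (0.48, 0.0988), or without FRTL5 basal replicate 1 (0.54, 0.0531), 2 (0.41, 0.147) or 3 (0.50, 0.0779). Lss D45252_s_at was 0.49 ± 0.23 higher and did not pass (adjusted p = 0.155), but passed without the 3 FRTL5 arrays numbered 1 (0.36, 0.0212) and with only the 6 arrays compared in the fit (0.046), where Hsd17b7 did not (0.0551). Sqle averaged 10.49 ± 0.17 in FRT/TSHR and 10.87 ± 0.24 in FRTL5 cells (-0.38, adjusted p = 0.176). Srebf1 averaged 7.91 ± 0.23 in FRT/TSHR and 7.99 ± 0.09 in FRTL5 cells (-0.08, adjusted p = 0.878), and the lines overlapped for both genes.

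After 17 h of TSH the lines lay closer for some genes and in the opposite order for Hsd17b7 and Lss. For Sqle and Srebf1 the order was that of basal and the gap wider. It went from -0.38 at basal to -1.26 for Sqle and from -0.08 to -0.57 for Srebf1. Lss and Srebf1 did not pass at either time. The FRT/TSHR cells were higher in 11 of 19 probe sets (11.5% of all) and lower in 2 (8.94% of all), with a median difference of 0.90. The 11 covered Fdft1, Cyp51, Dhcr7 and Insig1, and the 2 were Sqle and Hsd17b7. The Hsd17b7 means were 4.46 ± 0.33 in FRT/TSHR and 5.48 ± 0.20 in FRTL5 cells, a difference of -1.02 ± 0.17 (limma, adjusted p = 2.56e-04). Sqle averaged 10.25 ± 0.34 in FRT/TSHR and 11.51 ± 0.17 in FRTL5 cells, a difference of -1.26 ± 0.19 (adjusted p = 1.00e-04). In both genes all FRT/TSHR arrays were below all FRTL5 arrays.

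Cyp51 U17697_s_at was also higher in FRT/TSHR cells after 17 h, by 1.16 ± 0.26 or 2.23-fold (limma, adjusted p = 0.00419), and Fdft1 M95591_at by 1.82 ± 0.16 (adjusted p = 2.55e-07). Insig1 L13619_at was higher by 1.17 ± 0.18 (adjusted p = 1.67e-04) and Dhcr7 AB016800_at by 0.90 ± 0.28 (adjusted p = 0.0327). The Dhcr7 AB016800_at call was lost without FRT/TSHR 17 h replicate 2 (0.94, adjusted p = 0.059) or 3 (0.75, 0.138) and without FRTL5 17 h replicate 1 (0.60, 0.168). It was also lost with only the 6 arrays compared (0.90, 0.0535), without the 3 FRTL5 arrays numbered 1 (0.60, 0.119) and after further quantile normalization (0.69, 0.0855). AB016800_g_at, at 1.06 (0.0169), lost its call without FRT/TSHR 17 h replicate 3 (0.93, 0.0774) or FRTL5 17 h replicate 1 (0.81, 0.0891). Fdft1 rc_H33426_g_at, at 0.75 (0.0321), lost its call without FRT/TSHR 17 h replicate 1 (0.73, 0.0838) or 3 (0.60, 0.15), or FRTL5 17 h replicate 1 (0.79, 0.0543), 2 (0.73, 0.0819) or 3 (0.72, 0.0872). Lss D45252_s_at differed by -0.35 (0.362) and Srebf1 by -0.57 (0.126). Without the 3 FRTL5 arrays numbered 1 these were -0.74 (adjusted p = 1.26e-04) and -0.92 (0.00354), and Lss E12275cds_s_at and U31352_at passed too, at -0.52 (0.013) and -0.64 (0.0112). Srebf1 also passed after further quantile normalization (-0.73, 0.0405). Insig1 L13619_g_at, at 0.90 (0.164), passed at 1.31 (0.0404) without FRT/TSHR 17 h replicate 2, and Cyp51 rc_AI230255_at did not pass at 0.42 (0.423).

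**Figure D4:**
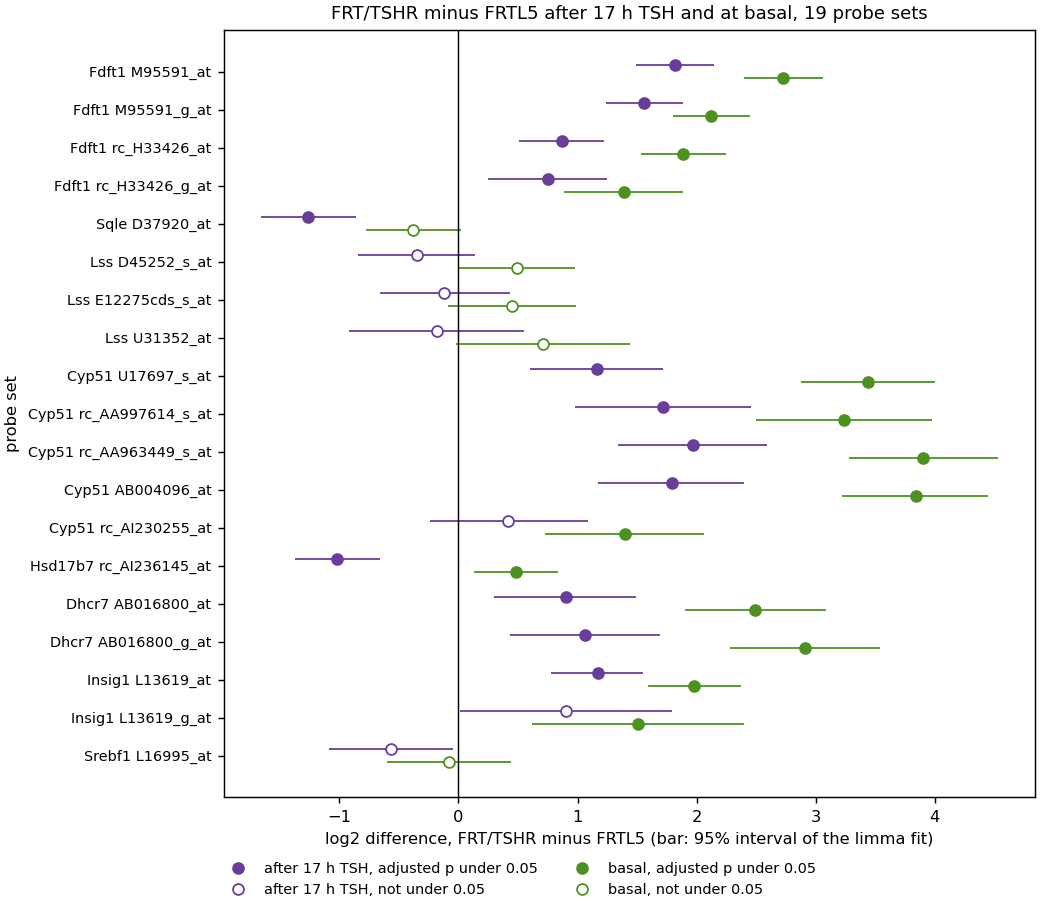
FRT/TSHR minus FRTL5 difference (log2) of the 19 probe sets after 17 h of TSH (purple, upper) and at basal (green, lower). Points are limma estimates, bars 95% intervals, and filled points have an adjusted p under 0.05. Every purple point lies left of its green one, and Sqle and Hsd17b7 have filled purple points below 0, at -1.26 and -1.02.

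By the place of FRTL5 17 h the 6 group means fell into 2 patterns, with 4 genes in each, and the full order varied within both. The lowest mean was FRTL5 basal or FRTL5 30 min in 17 of 19 probe sets, and FRTL5 17 h came above both in all 19. In 13 of 19 every FRT/TSHR group mean was above every FRTL5 group mean, namely all probe sets of Fdft1, Cyp51, Dhcr7 and Insig1. In 6 of 19 FRTL5 17 h was the highest mean, namely Sqle, the 3 Lss probe sets, Hsd17b7 and Srebf1. None of these counts of ordered means was made over all probe sets, so no share is given. Neighbours within FRT/TSHR, and FRTL5 basal and 30 min, were not told apart by the test in any of the 19. The patterns are ranks of means, and FRTL5 17 h was tested against FRT/TSHR at 17 h only. That test did not tell the lines apart for the 3 Lss probe sets and Srebf1. It did not do so for Cyp51 rc_AI230255_at and Insig1 L13619_g_at either.

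The difference of the 17 h effect between the lines (FRT/TSHR effect minus FRTL5 effect) was negative in 19 of 19 probe sets, with a median of -0.91 against 0.00 over all probe sets. It passed in 4 of 19, against 0.481% of all probe sets in that direction. These were Hsd17b7 at -1.5 ± 0.24 (limma, adjusted p = 0.00746) and the Cyp51 probe sets U17697_s_at at -2.28 ± 0.37 (0.0104), AB004096_at at -2.05 ± 0.41 (0.0287) and rc_AA963449_s_at at -1.94 ± 0.41 (0.0432). Dhcr7 AB016800_g_at came next at -1.86 ± 0.42 (0.0548), and Fdft1 rc_H33426_at at -1.02 ± 0.24 (0.0585). The call on AB004096_at was lost without FRT/TSHR 17 h replicate 1 (0.0833) or 2 (0.0732), FRT/TSHR basal replicate 1 (0.057) or 3 (0.0791), FRTL5 17 h replicate 2 (0.0743) or 3 (0.071), or FRTL5 basal replicate 3 (0.058). That on rc_AA963449_s_at was lost in 8 of 12 such fits, with adjusted p up to 0.11 without FRT/TSHR basal replicate 1. The other 7 arrays were FRT/TSHR 17 h replicates 1 (0.0941) and 2 (0.0962), FRT/TSHR basal replicate 3 (0.101), FRTL5 17 h replicates 2 (0.106) and 3 (0.104) and FRTL5 basal replicates 2 (0.0814) and 3 (0.0899). Both probe sets missed the threshold with only the arrays compared (0.0857 and 0.0943), and rc_AA963449_s_at did after centring of the arrays (an adjusted p that rounds to 0.05).

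The same contrast passed in more probe sets under several other settings. With the replicate block 12 of 19 passed, against 181 of all 8740 probe sets in that direction. The block added both Dhcr7 probe sets (adjusted p = 0.043 and 0.0266), Sqle (0.021), and Lss D45252_s_at (0.035) and U31352_at (0.0105). It also added Fdft1 M95591_at (0.0357) and rc_H33426_at (0.0087), and Cyp51 rc_AA997614_s_at (0.0495). Without the 3 FRTL5 arrays numbered 1, 10 of 19 passed, against 52 of all 8740 probe sets in that direction. The 6 added were Dhcr7 AB016800_at at -2.11 (adjusted p = 0.0127) and AB016800_g_at at -2.37 (0.00819), Cyp51 rc_AA997614_s_at at -2.09 (0.00119), Lss D45252_s_at at -1.09 (0.00351), Insig1 L13619_at at -1.17 (0.0275) and Fdft1 M95591_at at -1.16 (0.00259). Leaving out FRTL5 17 h replicate 1 alone gave calls to Cyp51 rc_AA997614_s_at (-2.14, 2.50e-04), Dhcr7 AB016800_at (-1.89, 0.0259) and AB016800_g_at (-2.10, 0.0278), Fdft1 M95591_at (-1.14, 0.00441), Insig1 L13619_at (-1.03, 0.0493) and Lss D45252_s_at (-1.22, 0.00588). Calls were also gained by Dhcr7 AB016800_g_at without FRTL5 basal replicate 1 (-2.13, 0.0305). Fdft1 rc_H33426_at gained one without FRTL5 basal replicate 1 (-1.15, 0.0431), FRT/TSHR basal replicate 2 (-1.18, 0.0387) or FRT/TSHR 17 h replicate 3 (-1.15, 0.0332). Further quantile normalization added Fdft1 rc_H33426_at (0.0445), M95591_at (just under 0.05) and both Dhcr7 probe sets (0.0468 and 0.0417). Dhcr7 AB016800_g_at also passed without the dimmest 25% of probe sets (-1.86, 0.0454), and the mean of a gene's probe sets passed for Dhcr7 (-1.73, 0.0428) and Fdft1 (-0.78, 0.0389). For the 30 min effect 0 of 19 passed (0.0343% of all probe sets, 3 by limma and 227 at an unadjusted p under 0.05). The median was -0.17 and the values ran from -0.79 for Dhcr7 AB016800_g_at to 0.46 for Cyp51 U17697_s_at.

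Most measured genes upstream of squalene also rose in FRTL5 cells after 17 h of TSH. Of 9 listed mevalonate enzymes 5 were measured, and 4 rose, with a list median of 1.54 against 0.01 over all 4736 genes, of which 1.86% rose. Acat2, an acetyl-CoA acetyltransferase, differed by 2.26 ± 0.29 and Fdps, which makes farnesyl diphosphate, by 1.99 ± 0.19 (limma, adjusted p = 4.94e-04 and 7.53e-05). Idi1, the isopentenyl diphosphate isomerase, differed by 1.54 and Mvd, the mevalonate diphosphate decarboxylase, by 1.34 (adjusted p = 0.0058 and 0.00882). Mvk, mevalonate kinase, did not pass at 0.26 (adjusted p = 0.813). These values are for the probe set with the highest mean of each gene. Of the others, 1 each of Acat2 (2.47) and Fdps (1.82) passed, and 1 each of Fdps (1.48), Idi1 (0.25) and Mvk (0.41) did not. In FRT/TSHR cells the 5 differences after 17 h ran from -0.57 for Acat2 to -0.21 for Idi1 and 0 passed. At basal all 5 were higher in FRT/TSHR than in FRTL5 cells (14.8% of all genes), by 1.75 for Mvk to 3.71 for Idi1. Of the 5, 3 passed for the line difference of the 17 h effect (0.528% of all genes in that direction), namely Acat2 (-2.83, adjusted p = 0.00402), Fdps (-2.27, 0.00139) and Mvd (-1.66, 0.0492).

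Of 7 other listed enzymes after lanosterol 4 were measured. By the probe set with the highest mean of each gene, 4 of 4 differences in FRTL5 cells at 17 h were positive. Their median was 0.69 and 0 passed, where 1.86% of all 4736 genes rose. Msmo1, a sterol methyl oxidase, differed by 1.08 (limma, adjusted p = 0.0709), Nsdhl, the dehydrogenase of the same demethylation, by 0.75 (0.0631), Ebp, the sterol isomerase, by 0.63 (0.19) and Lbr, a sterol reductase of the nuclear envelope, by 0.56 (0.362). The other Msmo1 probe set, E12625cds_at, passed at 1.51 (adjusted p = 3.75e-04), and also for the line difference of the 17 h effect at -1.39 (0.0208). At basal 3 of the 4 were higher in FRT/TSHR than in FRTL5 cells (14.8% of all genes). They were Msmo1 by 1.51, Nsdhl by 1.41 and Ebp by 1.16, and Lbr did not pass (0.56, limma adjusted p = 0.135).

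**Figure D5:**
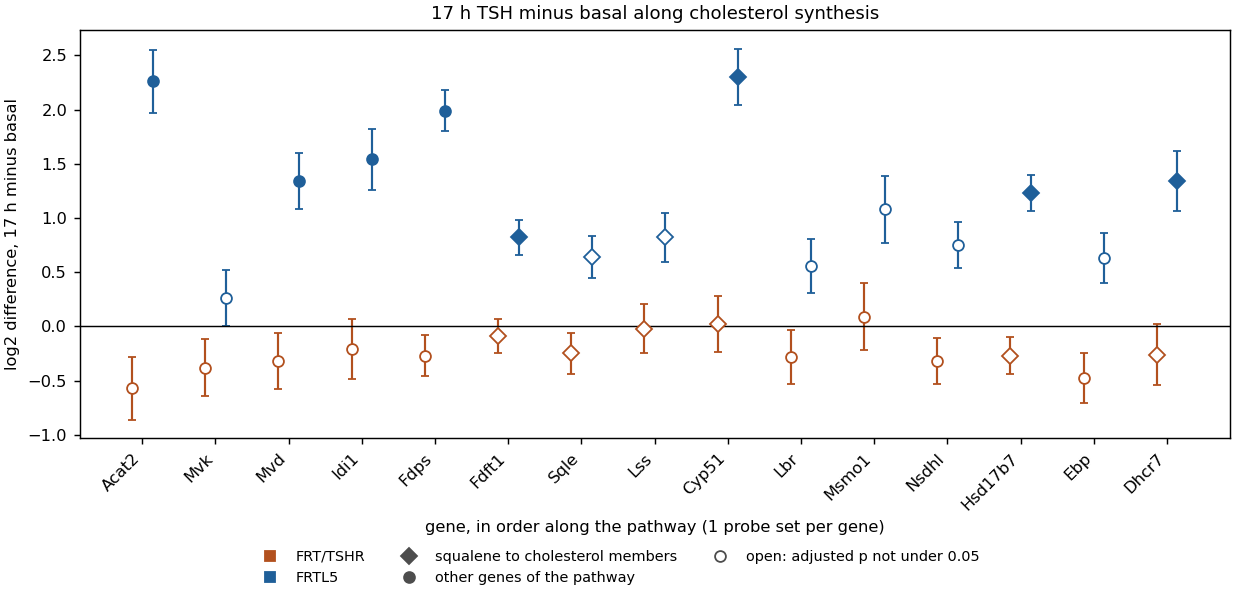
The 17 h minus basal difference (log2) of 15 measured genes in order along the route, 1 probe set per gene. Points are limma estimates with SE bars, diamonds are the squalene to cholesterol members, circles other genes of the route, orange FRT/TSHR, blue FRTL5, and filled symbols have an adjusted p under 0.05. The FRTL5 values run from 0.26 for Mvk to 2.30 for Cyp51 and all FRT/TSHR values are open.

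Few sterol uptake and fatty acid genes were measured, and their counts depended on the probe set taken. Over all 4736 genes 1.86% rose in FRTL5 cells at 17 h. Of 12 listed genes of sterol uptake, transport, storage and efflux 4 were measured and, by the probe set with the highest mean, 0 passed in FRTL5 cells at 17 h, with a median of 0.11. These were Scarb1, a lipoprotein receptor, at 0.39, the sterol-sensing receptors Nr1h2 at -0.43 and Nr1h3 at -0.09, and Soat1, which esterifies cholesterol, at 0.32. Of the other 2 Scarb1 probe sets D89655_at passed at 1.15 (limma, adjusted p = 0.0143) and AF071495_s_at did not at 1.27 (0.0806). Of 5 other regulators of the SREBP pathway 1 was measured, the protease gene Mbtps2, at -0.32 (limma, adjusted p = 0.509). Among fatty acid genes known as SREBP-1 targets 5 of 9 were measured and 2 rose, Me1, the malic enzyme, by 1.5 (adjusted p = 0.00919) and Acly, ATP citrate lyase, by 1.08 (0.0296). Fasn, fatty acid synthase, at 1.15 (0.322) and Acaca, acetyl-CoA carboxylase, at 0.53 (0.453) did not pass in these probe sets, while the other Fasn probe set, M76767_s_at, passed at 0.89 (0.0403). Of the other probe sets 2 of 4 passed for Me1 and 1 of 2 for Acly. The list median was 1.08. The fifth gene, Scd, a desaturase, read 0.28. Other listed genes were not analysed here.

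The 8 genes were compared with each other over 18 arrays after each line's mean was taken off. The points share the group differences and the arrays, so the correlations describe these arrays only. Each gene's r with the mean of the other members was 0.92 for Fdft1, 0.91 for Cyp51, 0.90 for Hsd17b7, 0.85 for Dhcr7, 0.83 for Lss, 0.79 for Insig1, 0.75 for Sqle and 0.59 for Srebf1. Srebf1 had the lowest value here and also over the 9 FRTL5 arrays, at 0.69. The genes most like the members' mean profile were Fdps (r = 0.95), Arpc1b, an actin nucleation subunit (0.95), Acat2 (0.91), Mvd (0.91), Pola1, a DNA polymerase subunit (0.90), Slc5a5, the iodide transporter (0.89), Ahcy, a hydrolase of the methyl cycle (0.87), and Lbp, a lipopolysaccharide-binding protein (0.87). Over the 9 FRTL5 arrays alone, 3 of these 8 were again among the top 8: Fdps, Arpc1b and Pola1.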

How the data were processed

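RNA of 2 rat thyroid cell lines was measured on 18 Affymetrix arrays, and the authors deposited log2 expression values per probe set. They were made with RMA (background correction, normalization across arrays and a summary of the probes), per the submitters' processing notes, with version and settings not given in the sources used here. Values between 2.61 and 13.58 show the log2 scale. Scanner files were not analysed here, and whether a probe set was above background is unknown.

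Of 8799 probe sets 59 controls were left out and 8740 tested, with no filter on low values. Names came from the platform annotation, in which 7006 probe sets had 1 symbol, 308 had several and 1426 had none. The suffix _s_at marks probe sets that may match several transcripts of a family, and probe sets of a gene share arrays and are not replicates. Where 1 probe set stands for a gene, it is the one with the highest mean.

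Group means were fitted to all 18 arrays with limma 3.58.1 (lmFit, eBayes) in R 4.3.3, with two-sided tests and Benjamini-Hochberg adjustment over 8740 probe sets within each of 10 comparisons, at a threshold of 0.05. Fits were tested on simulated data. The labels number replicates 1 to 3. Same-numbered arrays of a line deviated together (r of deviations 0.158 to 0.619 in FRT/TSHR, 0.148 to 0.798 in FRTL5, 9 pairs each), so a block by number within the line was the paired alternative. For different numbers r ran from -0.41 to -0.03 in FRT/TSHR and from -0.639 to 0.628 in FRTL5 (18 pairs each). The FRTL5 ranges overlapped, with medians of 0.409 for the same and -0.5025 for different numbers. Between lines r ran from -0.217 to 0.42 for the same number (median 0.184) and from -0.367 to 0.501 for different numbers (median -0.1445). Whether the numbers pair the lines is not known. The number of arrays limits the precision.

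Alternatives were the replicate block, only the arrays compared, leaving out each array or the 3 FRTL5 arrays numbered 1, leaving out the dimmest 25% of probe sets, further quantile normalization, centring of arrays, eBayes with trend and robust settings, the mean of a gene's probe sets and 1 motif mismatch. The members and the other gene lists were chosen with earlier results of these data known. Up to 4 genes of each other list were named by the smallest p in FRTL5 cells at 17 h, and 8 genes by likeness. Mvk and Scd, the fifth measured genes of their lists, were added after their values were seen.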

Additional observations from a re-analysis of the deposited data

Results flagged for a closer look

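The 17 h minus basal difference was unlike between the lines, by the test of the difference itself, for 1 Hsd17b7 and 3 Cyp51 probe sets. Over all probe sets 0.481% passed in that direction, and in FRT/TSHR cells 0 of 8740 passed at 17 h against basal. The value is the FRT/TSHR effect (17 h minus basal) minus the FRTL5 effect on the log2 scale. An effect of TSH cannot be told apart from one of time or handling in either line. It was -2.28 for Cyp51 U17697_s_at, from 0.02 in FRT/TSHR and 2.30 in FRTL5 cells. For Cyp51 AB004096_at it was -2.05 (-0.07 in FRT/TSHR and 1.98 in FRTL5 cells), and for Cyp51 rc_AA963449_s_at -1.94 (-0.05 in FRT/TSHR and 1.89 in FRTL5 cells). Hsd17b7 rc_AI236145_at had -1.5 (-0.27 in FRT/TSHR and 1.23 in FRTL5 cells). The adjusted p by limma was 0.0104, 0.0287, 0.0432 and 0.00746 in that order. Of 12 fits that left out 1 array, the call on AB004096_at was lost in 7 and that on rc_AA963449_s_at in 8. Both were also lost with only the arrays compared. Hsd17b7 averaged 4.73 at basal and 4.46 at 17 h in FRT/TSHR cells, below the array medians, and its detection above background is unknown. Dose and medium differed with the line and cannot be told apart from it, and basal Cyp51 was already higher in FRT/TSHR cells by 3.44 for U17697_s_at.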

How the results depend on the processing

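Of 190 differences (19 probe sets in 10 comparisons), 51 passed, and 31 of these passed under every alternative that gives them a value. Of 2721 values under alternatives, 0 that had passed changed sign, while 130 that had not passed changed sign and still did not pass. The counts over all probe sets took both directions together. They were 21 for FRTL5 at 30 min, 311 at 17 h and 368 for 17 h against 30 min. For the line difference they were 3 for the 30 min effect and 69 for the 17 h effect. With the replicate block the counts, in the same order, were 40, 867, 916, 8 and 365. The members called were 16 higher in FRTL5 at 17 h, against 363 of all 8740. For the line difference at 17 h 12 members were lower, against 181 of 8740. Between the lines, where a pairing by number is not known, the block added Lss U31352_at at basal (0.71, adjusted p = 0.0142). At 17 h it added Srebf1 (-0.57, 0.0479) and Insig1 L13619_g_at (0.90, 0.0449). Among the 19 probe sets the block changed no call other than these and those given with the genes. With only the arrays compared the counts were 2, 96, 189, 1 and 22. Members called were 3 in FRTL5 at 17 h, 5 at 17 h against 30 min and 2 for the line difference at 17 h. In the same directions 52, 102 and 13 of all 8740 probe sets passed. Without the 3 FRTL5 arrays numbered 1 there were 45 for FRTL5 at 30 min and 25 for the line difference at 30 min. There 6 members were lower in FRT/TSHR at 17 h, against 880 of all 8740. For the line difference at 17 h 10 members were lower, against 52 of 8740. Further quantile normalization gave 8 members lower for the line difference at 17 h, against 58 of 8740. A mismatch allowed in the sterol element core put it in 4 windows against 0. The cause of these changes was not tested. The fits that left out 1 array at a time are counted over all probe sets in both directions, and members in 1. FRTL5 at 30 min gave 12 to 44 probe sets and 0 members. FRTL5 at 17 h gave 152 to 253 with 6 to 13 members higher, and 17 h against 30 min 145 to 270 with 5 to 12 higher. The basal lines gave 1877 to 2068 and 12 to 14 members higher, and the lines at 17 h 1443 to 1627, with 8 to 11 higher and 2 to 5 lower. The line difference gave 1 to 24 at 30 min, and 33 to 83 with 2 to 10 members lower at 17 h. FRT/TSHR cells gave 0 at both times against basal and 0 to 8 for 17 h against 30 min. With 3 arrays a group, small differences may not pass.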
